A study of Mus musculus with 20 samples.

Results

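Suz12 binding after a block of transcription elongation was compared directly with Suz12 binding after a block of initiation. The 4 libraries compared were 2 from wild-type E14 mouse embryonic stem cells given DRB at 100 µM for 12 h and 2 from the same line given triptolide at 10 µM for 9 h, out of 20 samples in the series. Peaks of these 4 libraries that shared 1 bp or more were merged into 11880 regions, of 11943 obtained when the lists of untreated cells were merged in as well. All groups were grown in serum with LIF on gelatin, and each drug had its own pair of untreated (0 h) libraries, which served as controls. Drug, dose, hours of treatment and experimental series differed together, so their parts in a difference between the treated groups cannot be told apart. The series design calls the replicates biological, but separate cultures are not stated, and p-values measure only how far these libraries spread.

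Suz12 belongs to the core of PRC2, a Polycomb complex that deposits H3K27me3 on histones and keeps developmental genes silent in embryonic stem cells, mostly at promoters rich in CpG. DRB inhibits CDK9, the kinase that releases paused RNA polymerase II into elongation, so polymerase can still start and pause under it. Triptolide binds the helicase of TFIIH and stops transcription at initiation, before pausing. The comparison asks whether PRC2 distributes itself differently over the genome when polymerase is stopped at these different steps.

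The direct test described below called 15 regions. The promoter sequences of 4 of their genes are shown here, chosen after the values were seen, because these genes are textbook cases of inducible transcription. Junb, an immediate early AP-1 factor, and Socs3, the feedback inhibitor of LIF and STAT3 signalling, had more Suz12 under DRB. Mt1 and Mt2, neighbouring metallothionein genes induced by metals and stress, had more under triptolide. The RefSeq table (GRCm38.p6) gives 250 bases before each start. They are printed whole, 5′ to 3′ on the gene's strand, for Junb (chr8:84978749-84978998, minus strand) and Mt2 (chr8:94172368-94172617, plus strand). For Socs3 (chr11:117969502-117969530, minus strand) and Mt1 (chr8:94179056-94179082, plus strand) the listed start lies inside the annotated gene, and the motif match with 10 bases on each side is given. Capitals mark matches on either strand. The motif sought in Socs3 and Junb was TTCNNNGAA, the palindromic form of STAT sites. In Mt1 and Mt2 it was TGCNCNC, a loose form of the core of metal response elements.
Socs3: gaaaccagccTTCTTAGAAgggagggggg
Junb: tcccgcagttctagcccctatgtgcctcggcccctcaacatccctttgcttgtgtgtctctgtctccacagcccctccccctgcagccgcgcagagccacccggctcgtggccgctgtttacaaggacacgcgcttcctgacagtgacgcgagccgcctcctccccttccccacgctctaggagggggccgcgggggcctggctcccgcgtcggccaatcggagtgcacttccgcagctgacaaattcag
Mt1: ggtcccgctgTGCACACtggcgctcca
Mt2: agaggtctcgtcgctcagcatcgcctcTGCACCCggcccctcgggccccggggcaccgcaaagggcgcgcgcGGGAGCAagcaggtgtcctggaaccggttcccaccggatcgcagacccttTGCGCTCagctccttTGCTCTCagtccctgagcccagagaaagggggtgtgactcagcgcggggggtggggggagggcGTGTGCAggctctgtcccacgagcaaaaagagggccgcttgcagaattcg
TTCNNNGAA matched once in the 250 bases of Socs3 and not in those of Junb, and 7.02% of the 32851 promoters of the table held it. TGCNCNC matched at 1 place for Mt1 and at 5 for Mt2, and 44.4% of promoters held it, 15.2% at 2 or more places. It also matched at 1 place each for Socs3 and Junb, not marked above, while TTCNNNGAA matched in neither Mt1 nor Mt2. A match is a run of letters and not a measured binding site.

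The treated libraries held 2404654 and 7272269 reads over the regions under DRB (index ATCACG and index TGACCA, the sequencing indices by which the DRB libraries are named) and 4288288 and 4402759 under triptolide (T1 and T2). By their column names the triptolide libraries, treated and untreated, also carry index TGACCA. Index ATCACG thus occurs in the DRB series alone. Levels are given as CPM, reads per 1000000 reads counted over the regions after TMM scaling, so they are relative within a library. The DRB index ATCACG library stood apart. Over 3166 regions with at least 100 counts in every library, its median absolute log2 difference from the other DRB library was 0.211, while that other DRB library lay 0.0951 from triptolide T1 and the triptolide libraries lay 0.0867 from each other. Across the same regions, whose values in a library all come from that library and its depth, Pearson's r of log2 CPM was 0.952 between the DRB libraries and 0.987 between the triptolide libraries. List medians are therefore given with and without it, as are the differences above 0.5 (log2, either direction) of named regions that leaving it out moved by over 1.5 times.

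**Figure D1:**
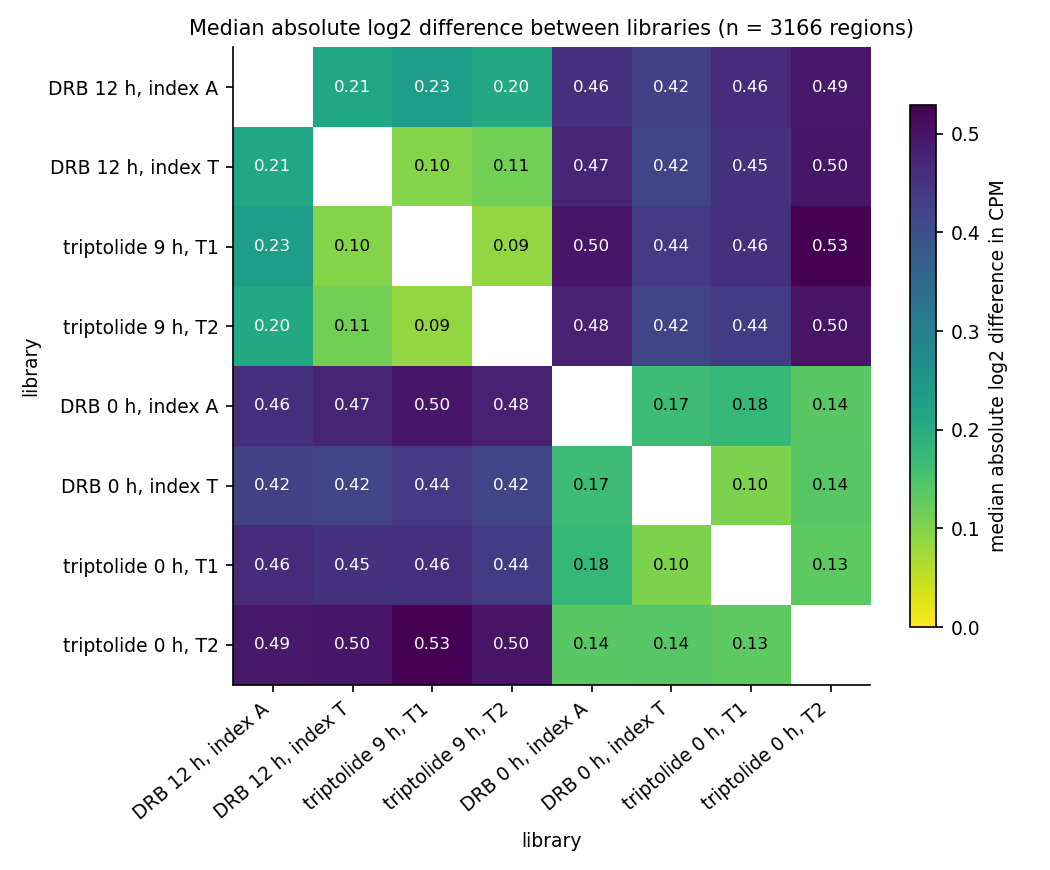
Median absolute log2 difference in CPM between each pair of the 8 Suz12 libraries (rows and columns), over 3166 regions; index A is ATCACG and index T is TGACCA. The DRB index TGACCA library is closer to the triptolide 9 h libraries (0.10 and 0.11) than to its own replicate (0.21), and all treated libraries lie farther from the untreated ones.

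The peak lists of the treated groups overlapped widely. The lists held 10929 and 10492 peaks under DRB and 7153 and 10005 under triptolide, with median widths of 1120, 1340, 1634 and 1266 bp. Of the 11880 regions, 6711 (56.5%) had a peak in all 4 lists, and these held 89.0 to 89.8% of the reads counted in each treated library. Peaks in both DRB lists and no triptolide list marked 592 regions (4.98%), and the reverse pattern marked 18 (0.152%). These counts moved with the lengths of the lists: with every list held to the 7153 peaks of highest read density, they became 234 and 261.

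The direct test, edgeR's quasi-likelihood test with Benjamini-Hochberg adjustment over all 11880 regions, called 15 regions (0.126%) at an adjusted p under 0.05. Of these, 2 (0.0168%) were higher under DRB and 13 (0.109%) higher under triptolide, and 947 regions (7.97%) had an unadjusted p under 0.05. The median log2 difference, DRB minus triptolide, was 0.02. The estimate was within 2-fold at 11784 regions (99.2%), and its whole 95% interval lay within 2-fold at 10297 (86.7%), or at 6557 of the 6711 regions with a peak in all 4 lists (97.7%). Of 96 regions with an estimate of 2-fold or more, 69 were higher under DRB, of which 2 were called and 67 had a mean below the median of all regions, 36.1 CPM. The other 27 were higher under triptolide, and 12 of these were called. A mean below that median was found at 15 of the 27, the called regions in Klb and Slc6a5 among them. Zfp647 and Arhgef15 had means above it and were not called (−1.42 ± 0.26 and −1.04 ± 0.29, log2, SE; adjusted p = 0.106 and 0.375, edgeR). Both DRB libraries were above both triptolide libraries at 2606 regions (21.9%) and below both at 2192 (18.5%).
Leaving out the index ATCACG library gave 23 calls, which included all 15, with 2 higher under DRB. Leaving out the index TGACCA library in its place gave 755, of which 252 were higher under DRB and 503 higher under triptolide, and without either triptolide library 2 calls were left. Among the untreated groups of the 2 series the same test called no region (0.0%; 267 with an unadjusted p under 0.05, and none in DESeq2).

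**Figure D2:**
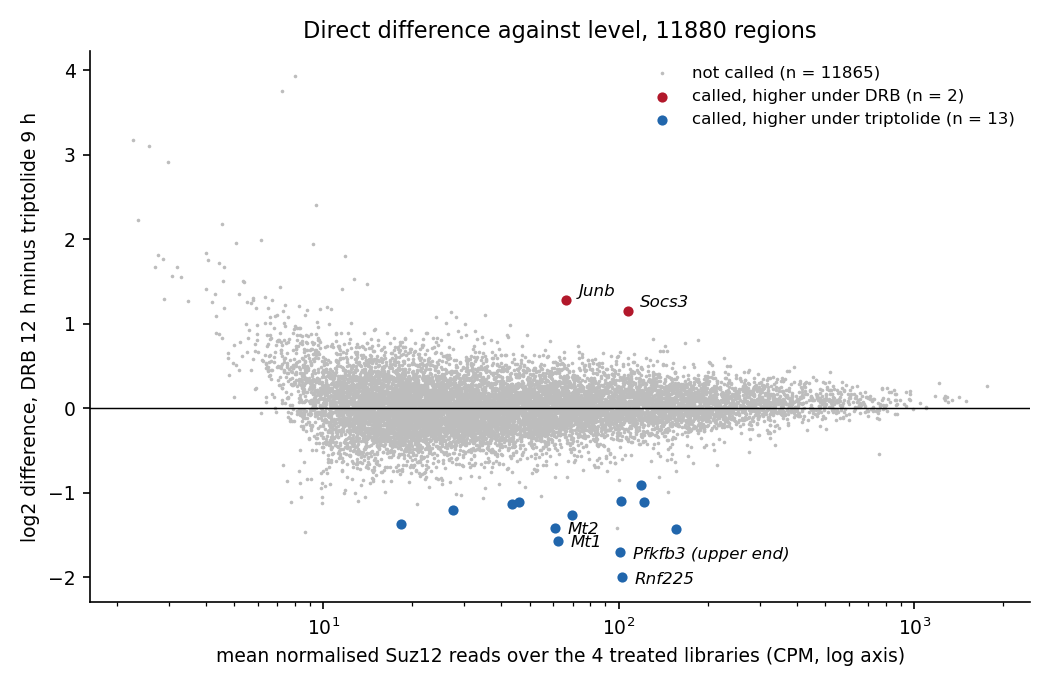
Log2 difference between DRB 12 h and triptolide 9 h (vertical axis) against the mean level over the 4 treated libraries (horizontal axis, CPM on a log scale), 1 point per region. The 2 regions called higher under DRB (red) and 13 called higher under triptolide (blue) lie outside a cloud centred near 0; most estimates beyond 2-fold at low levels were not called.

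Junb and Socs3 were the regions with significantly more Suz12 under DRB. Over Junb (chr8:84976995-84979154, which spans the start and nearly all of the gene) the level was 107 and 82.1 CPM under DRB against 41.8 and 35.2 CPM under triptolide. The difference was 1.28 ± 0.18 (log2, SE; 2.43-fold; adjusted p = 0.016, edgeR). The untreated libraries read 24.98 to 28.2 CPM, and the treated mean was 3.68 times the 0 h mean under DRB and 1.44 times under triptolide. No triptolide or untreated list had a peak there. Over Socs3 (chr11:117967084-117969760, across its start) the level was 163 and 133 CPM under DRB, 65.2 and 67.6 CPM under triptolide, and 24.98 to 38.5 CPM in untreated cells. The difference was 1.15 ± 0.18 (log2, SE; 2.22-fold; adjusted p = 0.0289, edgeR), and all 4 treated lists but no untreated list had a peak. At both genes the groups did not overlap. Without the index ATCACG library the differences were 1.06 and 0.97, and both were still called. Other regions around Socs3 leaned the same way. The nearest ones, 16.7 and 35.6 kb away, differed by 0.61 ± 0.18 and 0.99 ± 0.19 (log2, SE), but did not pass the test (adjusted p = 0.414 and 0.114, edgeR). At the farther one the level was 43.9 and 37.0 CPM under DRB and 20.6 and 19.6 CPM under triptolide, against 0 h means of 35.9 and 34.6 CPM. The 6 regions within 50 kb of Junb were not called and ran from −0.35 to 0.28.

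The largest difference of all called regions lay over Rnf225, a gene for a RING finger protein, on chromosome 7 (chr7:12927505-12929500, starting 89 bp past the Rnf225 start). The level was 38.7 and 42.7 CPM under DRB and 163 and 166 CPM under triptolide, a difference of −2.003 ± 0.14 (log2, SE; 4.01-fold higher under triptolide; adjusted p = 6e-05, edgeR). The untreated libraries read 44.97 and 45.4 CPM in the DRB series and 57.3 and 55.2 CPM in the triptolide series. The treated mean was 0.900 times the 0 h mean under DRB and 2.92 times under triptolide. A second called region lay 40.9 kb further on, inside the zinc finger gene Zfp324 (chr7:12970433-12971940, 4595 bp past its start). It read 33.8 and 46.1 CPM under DRB, 101 and 96.5 CPM under triptolide and 31.7 to 34.4 CPM in untreated cells, with a difference of −1.27 ± 0.17 (log2, SE; adjusted p = 0.0141, edgeR). The next region, 33.8 kb beyond, stood at 113 to 166 CPM in all 4 treated libraries and was not called (−0.34 ± 0.17; adjusted p = 0.627, edgeR).

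Pfkfb3, which makes an activator of glycolysis, held 2 called regions 47.9 kb apart, each over a listed start of the gene. The region over its outermost start (chr2:11552219-11554523) read 161 and 162 CPM in untreated cells of the DRB series and 39.1 and 53.9 CPM after DRB. Under triptolide it read 154 and 157 CPM, against 174 and 178 CPM untreated. The direct difference was −1.71 ± 0.15 (log2, SE; 3.26-fold; adjusted p = 0.000432, edgeR). The inner region (chr2:11501049-11504335) showed the same layout more weakly: 66.0 and 86.4 CPM under DRB, 163 and 172 CPM under triptolide and 138 to 162 CPM untreated, with a difference of −1.12 ± 0.15 (adjusted p = 0.0141, edgeR). Both regions had a peak in all 8 lists, and at both the DRB 12 h libraries were the lowest of the 8.

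Mt1 and Mt2 read 20.9 and 39.1 CPM, and 21.3 and 42.3 CPM, under DRB. Under triptolide the levels were 102 and 86.3 CPM at Mt1 (chr8:94178606-94180538) and 88.1 and 92.0 CPM at Mt2 (chr8:94171018-94173979). The differences were −1.57 ± 0.23 at Mt1 (2.97-fold; adjusted p = 0.0213, edgeR) and −1.42 ± 0.24 at Mt2 (2.67-fold; adjusted p = 0.0471). The DRB libraries disagreed here by more than at Rnf225, and the index TGACCA library alone gave −1.30 and −1.12. The untreated series also differed in the same direction, with means of 40.8 and 62.8 CPM at Mt1 and 43.7 and 60.7 CPM at Mt2 (DRB series, then triptolide series). Mt3, the brain metallothionein gene 18.0 kb from Mt2, read 11.7 and 16.3 CPM under DRB and 24.9 and 21.5 CPM under triptolide and was not called (−0.68 ± 0.24; adjusted p = 0.539, edgeR).

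The other 7 regions higher under triptolide differed by 1.88-fold to 2.70-fold. The largest of these lay inside Klhl26 (chr8:70451127-70453666, 23277 bp from its start), with 63.6 and 102 CPM under DRB and 218 and 241 CPM under triptolide (−1.43 ± 0.20; adjusted p = 0.0141, edgeR). At the junction of Stk11, the LKB1 kinase gene, and Cbarp (chr10:80130514-80132892) the levels were 58.0 and 70.8 CPM under DRB, 136 and 143 CPM under triptolide and 32.5 to 40.4 CPM untreated, so both drugs had more there than untreated cells. Lmln, a metallopeptidase gene, read 26.97 and 30.6 CPM under DRB and 62.2 and 63.8 CPM under triptolide at its start. Efnb3, an ephrin ligand of axon guidance, read 24.6 and 29.4 CPM against 65.8 and 54.3 CPM.
Regions inside Klb, the FGF co-receptor gene, and Slc6a5, the neuronal glycine transporter gene, had low levels. They read 10.1 and 10.4 CPM against 26.6 and 26.5 CPM at Klb, and 13.7 and 18.7 CPM against 38.4 and 39.0 CPM at Slc6a5. The untreated libraries read 21.6 to 28.5 CPM at Klb and 42.3 to 46.5 CPM at Slc6a5. Over Ltb4r2, a leukotriene receptor gene, the levels were 69.2 and 94.1 CPM against 151 and 161 CPM (−0.91 ± 0.15; adjusted p = 0.0443, edgeR). Of the 13 regions, 8 were within 1 kb of a gene start (of either end for the few genes whose strand was not given, such as Efnb3 and Ltb4r2) and 5 were inside a gene farther from one. Of all 11880 regions, 7839 (66.0%) were within 1 kb of a start and 2542 inside a gene farther from one. The libraries of the groups did not overlap at any of the 13, which is not independent of their being called. Regions within 50 kb of the 15 that were not called themselves numbered 28, with log2 differences from −0.68 to 0.99 and a median of −0.22.

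**Figure D3:**
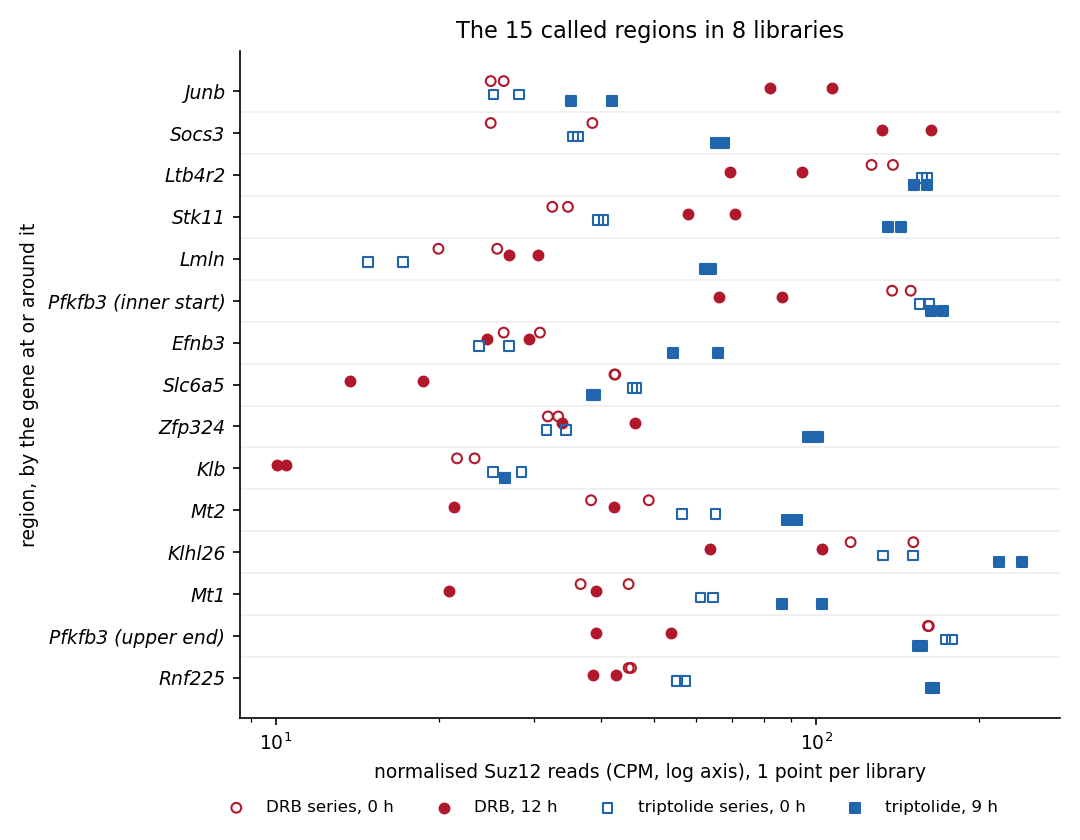
Normalised Suz12 reads (CPM, log axis) of the 15 called regions in the 8 libraries, 1 point per library, with open symbols for 0 h and filled for treated cells, circles for the DRB series and squares for triptolide. Junb and Socs3 at the top have DRB 12 h to the right of triptolide 9 h, and the other 13 regions the reverse; at both Pfkfb3 regions, Klb, Slc6a5 and Ltb4r2 the triptolide points lie near the untreated ones and the DRB points below them.

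The 13 regions reached their difference from untreated levels in several ways, described here by whether the libraries of a group overlapped. At 3 of them (Zfp324, Stk11 and Lmln) both drugs read above their own 0 h libraries, triptolide by more. The lower DRB library at Zfp324 read 33.8 CPM against 33.3 CPM in the higher 0 h library. At another 3 (Rnf225, Klhl26 and the inner Pfkfb3 region) triptolide read above 0 h and DRB below it. Some of these steps were small: the triptolide mean was 1.06 times 0 h at the inner Pfkfb3 region, and the DRB mean 0.900 times at Rnf225. Such an order of libraries is common. Between the treated groups DRB was above at 21.9% of all regions and below at 18.5%. At Mt1, Mt2 and Efnb3 triptolide read above 0 h while the DRB libraries overlapped theirs. At the remaining 4 (the outer Pfkfb3 region, Slc6a5, Klb and Ltb4r2) DRB read below 0 h, and triptolide below it or overlapping it. The change from 0 h was compared between the drugs in the same fit, as the difference of the differences. It passed the test at 2 regions (0.0168%), Rnf225 (−1.69 ± 0.21; adjusted p = 0.035, edgeR) and the outer Pfkfb3 region (−1.58 ± 0.21; adjusted p = 0.036), while 189 regions had an unadjusted p under 0.05. All 15 called regions had a difference of changes with the same sign as their direct difference. The direct and the baseline-corrected values share the treated libraries and are not independent of each other.

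Regions listed under DRB alone mostly differed little in reads. In the 592 regions of both DRB lists the median log2 difference was 0.24. Both DRB libraries were above both triptolide libraries at 326 of them (55.1%), against 21.9% of all regions. Among the 592, 1 region, Junb, was called, against 0.0168% of all regions in that direction. The lists were called from the same libraries as the counts, so neither the count of libraries above nor the call is independent of the class. Their median level was 19.4 CPM under DRB and 16.2 CPM under triptolide, against 75.9 and 76.1 CPM in regions of all 4 lists. After Junb, the named regions of highest level in this class with a gene start were B3gnt3, Etv6, Ing1, Skil and Urgcp. B3gnt3, a glycosyltransferase gene, overlapped between groups: it read 35.8 and 46.2 CPM under DRB and 46.8 and 29.1 CPM under triptolide. Ing1, a reader of H3K4 methylation, read 55.6 and 39.0 CPM against 28.5 and 24.6 CPM (0.80 ± 0.27; adjusted p = 0.522, edgeR; 0.53 without the index ATCACG library). Etv6, an ETS repressor gene, read 44.7 and 60.6 CPM against 36.7 and 35.0 CPM, and Skil, a SMAD co-repressor gene, 53.5 and 38.6 CPM against 33.0 and 24.01 CPM, and neither passed the test. Without the index ATCACG library the difference at Skil went from 0.67 to 0.41. Urgcp, which read 49.9 and 35.7 CPM against 30.7 and 26.1 CPM, went from 0.56 to 0.30. In the 18 regions of both triptolide lists alone the median was −0.74. Both DRB libraries were below both triptolide libraries at all 18, against 18.5% of all regions. In the class 1 region, in Slc6a5, was called, against 0.109% of all regions in that direction. Here too neither the count nor the call is independent of the class. The bidirectional start of Surf1 and Surf2 read 18.1 and 19.1 CPM under DRB and 39.0 and 36.4 CPM under triptolide (−1.01 ± 0.23; adjusted p = 0.237, edgeR). Msh4, a meiotic mismatch repair gene, read 7.65 and 16.9 CPM against 28.5 and 30.1 CPM, and Tmed4 18.1 and 20.8 CPM against 32.4 and 32.2 CPM. A region 784 bp from the Olig3 start read 8.45 and 13.97 CPM against 22.7 and 17.5 CPM, and 3 untreated lists had a peak there. Another region at Olig3 was far stronger, with a mean of 187.6 CPM and a peak in all 4 treated and all 4 untreated lists. Its difference was −0.18, and it was not called.
The regions that gained a peak in all 4 treated lists and had none in untreated cells numbered 1065, and their median log2 difference was −0.04, with 1 called higher under DRB and 2 under triptolide. In the 4346 regions of all 8 lists the median was 0.01, with 4 called, all higher under triptolide. For comparison, 2 (0.0168%) of all 11880 regions were called higher under DRB and 13 (0.109%) higher under triptolide.

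None of the 5 strongest Suz12 regions with a gene start was called. With 0.126% of all regions called, a call among so few would be rare. The 5 of highest mean CPM with a gene start were Skor1, Ebf3, Otx1, Six3 and Tbx1, all developmental transcription regulators. Skor1 read 1673 and 1404 CPM under DRB and 1434 and 1460 CPM under triptolide (0.09 ± 0.13, log2, SE). At Ebf3, Otx1 and Six3 both DRB libraries were above both triptolide libraries, by 0.08 to 0.13, and none was called. This order was found at 21.9% of all regions. Without the index ATCACG library the differences at these genes were 0.05, 0.03 and 0.04. The region of highest level with no such start was a ribosomal RNA repeat on chromosome 17 (annotated Rn18s-rs5 and AY036118), listed in 1 DRB list only, which read 2788 and 1068 CPM under DRB and 1582 and 1618 CPM under triptolide.

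In the 27 gene lists described here, called regions were at an immediate early gene (Junb), in the LIF, STAT3 and JAK pathway (Socs3) and in axon guidance (Efnb3). In the LIF pathway 1 of 14 regions was called, against 0.0168% of all regions in that direction. All 14 had a value above 0, from 0.10 to 1.15, with a median of 0.27. Both DRB libraries were above both triptolide libraries at 10 of them, against 21.9% of all regions and 27.3% of regions within 1 kb of a start. That share reached 40.1% in the quartile of regions with the most promoter CpG, described below. Bcl3, a transcriptional co-regulator of the list, read 42.3 and 32.5 CPM against 15.7 and 17.7 CPM (1.14 ± 0.24; adjusted p = 0.203, edgeR). Klf4, a pluripotency factor downstream of LIF, read 239 and 195 CPM against 178 and 173 CPM (0.30 ± 0.14). The kinases Jak1 and Jak2 differed by 0.27 and 0.21, and the receptor subunit Il6st by 0.10. Without the index ATCACG library the median of the list was 0.16, and the medians of the 27 lists ran from −0.20 to 0.24.
Among 30 regions of immediate early genes, Junb was called and the median was 0.09, or −0.01 without the index ATCACG library. Its AP-1 relatives were not called. Fos read 141 and 142 CPM under DRB and 139 and 126 CPM under triptolide, and Jun 334 and 298 CPM against 307 and 332 CPM. The Egr genes, targets of SRF, ran from −0.02 (Egr3) to 0.10 (Egr4). Arc leaned the other way, with 135 and 118 CPM against 154 and 155 CPM (−0.30 ± 0.15).

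**Figure D4:**
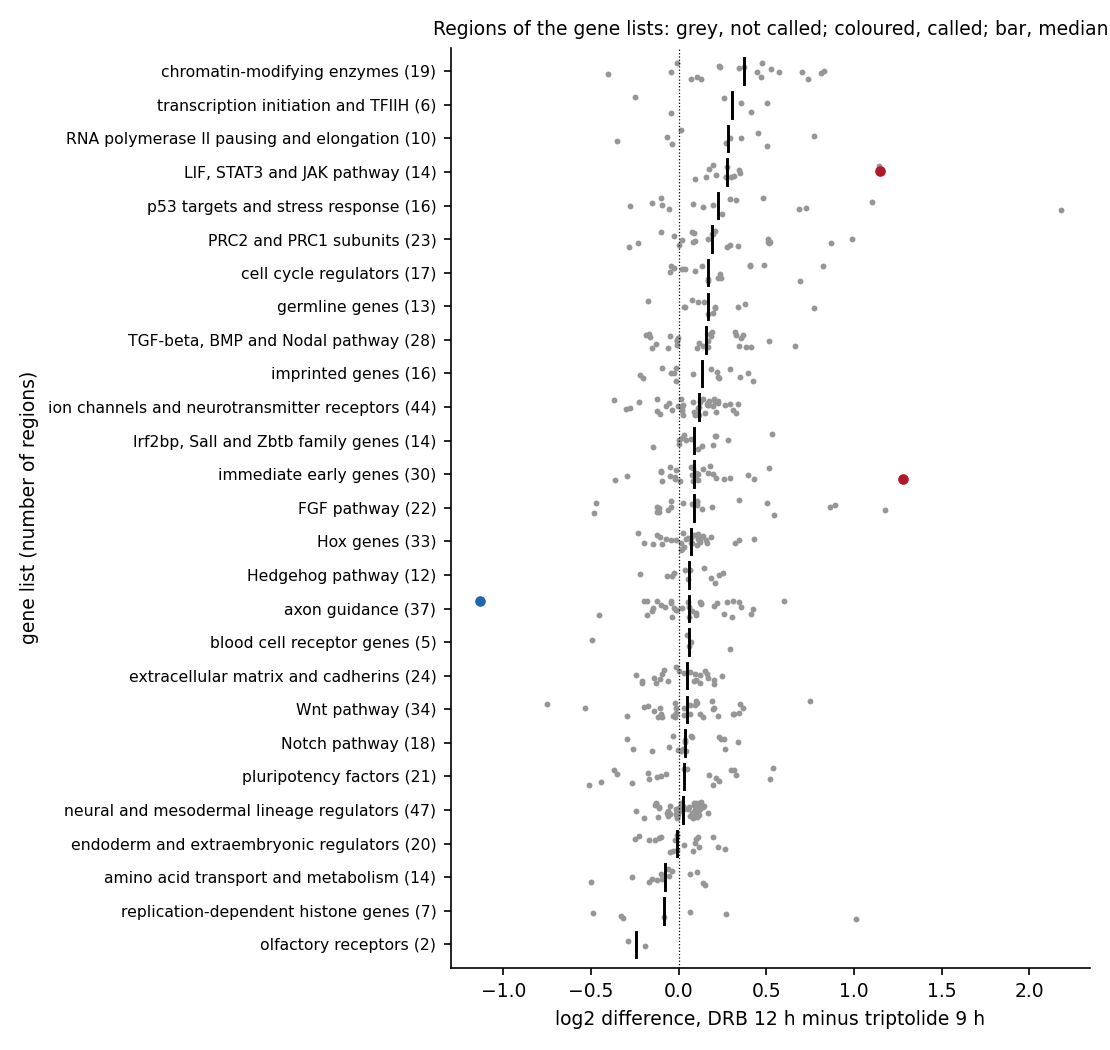
Log2 difference between DRB 12 h and triptolide 9 h (horizontal axis) for the regions at the genes of 27 lists (vertical axis, number of regions in parentheses), 1 point per region with the list's median as a bar. Coloured points are the called regions Junb and Socs3 (red) and Efnb3 (blue); medians run from −0.24 to 0.37.

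No region was called in the Hox, neural and mesodermal, Wnt and FGF lists, which hold many classical PRC2 targets, against 0.126% of all regions. In these lists 3 of 33, 0 of 47, 2 of 34 and 5 of 22 regions had an unadjusted p under 0.05 in edgeR, against 7.97% of all regions. The 33 regions at Hox genes had a median of 0.07 (0.04 without the index ATCACG library) and ran from −0.23 to 0.43. Hoxa3 read 743 and 847 CPM under DRB and 812 and 756 CPM under triptolide. The 47 neural and mesodermal regulators lay between −0.25 and 0.17. In the Wnt pathway the lowest value was at the receptor gene Fzd10, with 103 and 130 CPM under DRB and 180 and 215 CPM under triptolide (−0.75 ± 0.18; adjusted p = 0.253, edgeR). The FGF list holds 4 regions at Sprouty and Spred genes, feedback inhibitors of Ras signalling, singled out here after their values were seen, and none was called. Spry4 read 70.9 and 73.1 CPM against 50.2 and 48.6 CPM, Spred1 58.8 and 49.6 CPM against 24.9 and 34.1 CPM, and Spry2 13.3 and 16.1 CPM against 6.01 and 7.16 CPM. Spry1 overlapped between the groups, at 88.6 and 86.0 CPM against 87.5 and 100.7 CPM. The ligand gene Fgf17 was on the triptolide side, at 31.4 and 28.8 CPM against 42.0 and 41.1 CPM. The 22 FGF regions had a median of 0.09, or −0.03 without the index ATCACG library.
Pluripotency genes had a median of 0.03 over 21 regions, or −0.03 without the index ATCACG library. Utf1 read 87.8 and 77.6 CPM against 50.4 and 62.8 CPM (0.54 ± 0.17; adjusted p = 0.443, edgeR), while Lefty1 read 40.7 and 77.5 CPM against 84.5 and 90.1 CPM (−0.51, or −0.20 without the index ATCACG library). Sox2 read 24.96 and 31.3 CPM against 27.2 and 28.0 CPM.
Among the 23 regions at genes of PRC2 and PRC1 themselves, the strongest, Cbx8, read 1068 and 1123 CPM under DRB and 1093 and 1096 CPM under triptolide. Scmh1, a PRC1-associated gene, had the largest value, with 68.8 and 46.0 CPM against 28.3 and 28.4 CPM (0.99 ± 0.22; adjusted p = 0.237, edgeR). Chromatin-modifying enzymes had a median of 0.37 over 19 regions, and none was called. Both DRB libraries were above both triptolide libraries at 12 of the 19, against 21.9% of all regions, 27.3% of regions within 1 kb of a start and 40.1% in the quartile with the most promoter CpG. An unadjusted p under 0.05 (edgeR) was found at 7, against 7.97% of all regions. Dnmt3a, a de novo DNA methyltransferase gene, read 286 and 189 CPM against 113 and 156 CPM (0.81 ± 0.22; adjusted p = 0.362, edgeR; 0.47 without the index ATCACG library), and Chd7 199 and 161 CPM against 103 and 111 CPM. Without the index ATCACG library the median of the enzymes was 0.15.
No region was called at genes of the machinery that the drugs act on. With 0.126% of all regions called, lists this short would rarely hold a call. The 10 regions at pausing and elongation genes had a median of 0.28 (0.17 without the index ATCACG library), with Hexim1, an inhibitor of CDK9, at 42.3 and 52.3 CPM against 53.8 and 44.4 CPM. The 6 regions at initiation genes had a median of 0.31 (0.09 without the index ATCACG library), with the polymerase subunit gene Polr2b at 57.6 and 55.0 CPM against 57.9 and 57.9 CPM. Of the regions of both lists 1, at the cyclin gene Ccnk, had an unadjusted p under 0.05 (edgeR), against 7.97% of all regions.

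The direction of the small differences moved with the CpG count of the promoter. Regions within 1 kb of a RefSeq start numbered 6598, and they were split into quartiles by the CpG count of that promoter's 300 bases. The median log2 difference was −0.04, 0.03, 0.10 and 0.17 from the lowest quartile to the highest, and the share of regions with both DRB libraries above both triptolide libraries went from 15.6% to 40.1%. The 2 DRB libraries differed from each other along the same axis, with medians of −0.10, 0.05, 0.12 and 0.19 for index ATCACG minus index TGACCA. Without the index ATCACG library the medians of the direct difference were −0.03, −0.00, 0.00 and 0.05. Triptolide T1 minus T2 ran from 0.03 to −0.09. With the index TGACCA library left out in its place, the medians of the direct difference were −0.17, 0.01, 0.13 and 0.24 from the lowest CpG quartile to the highest. The Junb, Socs3, Mt1 and Mt2 promoters held 21, 31, 24 and 24 CpG, near the median of 24 for promoters at Suz12 regions, and Rnf225 held 5.

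**Figure D5:**
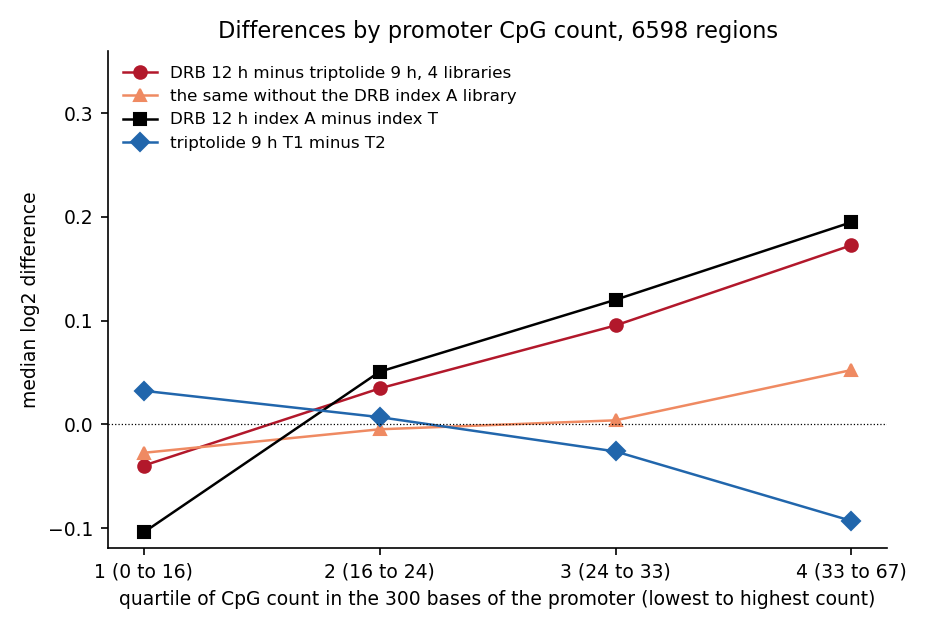
Median log2 difference (vertical axis) by quartile of promoter CpG count (horizontal axis, with the lowest and highest count of each quartile), over 6598 regions. The difference between the drugs (red) follows the difference between the DRB libraries (black) from below 0 to 0.17 and 0.19, and is 0.05 or less without the index ATCACG library (orange).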

How the data were processed

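Suz12 ChIP-seq of E14 cells was analysed from the deposited peak lists of 8 libraries, 2 from each drug's untreated cells, 2 from cells given DRB for 12 h and 2 from cells given triptolide for 9 h. The submitters' processing notes name Bowtie, MACS and the mouse build mm10 (GRCm38), without versions. The deposited lists hold raw read counts over each peak in 13 columns, per the file headers, and the peaks of each list come from 1 library. The column names placed 8 columns in the groups, and the other 5, the input among them, were not used. DRB columns are named by index, since their names do not give the replicate numbers of the labels.

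Peaks of the 4 treated lists sharing 1 bp were merged, and a region took the counts over its widest peak. Counts of all 8 libraries were fitted in edgeR 4.0.16 (TMM scaling, quasi-likelihood test, 4 groups, no covariate, no filter; R 4.3.3), with an adjusted p under 0.05 as the threshold over all regions. Each group had 2 libraries, so the spread was shared across groups. The code was tested on simulated counts. Gene positions and promoters came from RefSeq tables of GRCm38.p6, and 17492 of 21900 protein-coding genes had a promoter entry with a strand. The others were matched at either annotated end.

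The members and the 28 gene lists were chosen with earlier results of these data known, and 1 of the lists is not reported here. Named genes were the called regions with the largest differences in each direction, the highest regions of each drug's own list pattern, up to 3 called members or the highest region of each gene list, and the 5 highest regions with a gene start, leaving out Gm and Rik symbols. Genes named beside these were chosen after their values were seen. Alternatives were DESeq2 1.42.0, other scalings, a filter, the narrowest peak, the treated libraries alone, a test against a 1.5-fold difference, leaving out each library, and other rules for the lists.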

Additional observations from a re-analysis of the deposited data

Results flagged for a closer look

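At 2 regions the change from 0 h differed between DRB and triptolide by the test of that difference itself. At the Rnf225 region the change under DRB minus the change under triptolide was −1.69 (log2, SE 0.21; adjusted p = 0.035, edgeR's quasi-likelihood test). At the outer Pfkfb3 region it was −1.58 (SE 0.21; adjusted p = 0.036, edgeR). Leaving out a library gave 0 to 10 such regions. Both were among the 34 regions called with libraries paired by column name.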

How the results depend on the processing

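Every called region kept its direction in all 16 alternatives. The Rnf225 region and the outer Pfkfb3 region were called in all 16, from −2.12 to −1.95 and from −2.03 to −1.56, while Junb was called in 12 and Socs3 in 8. The counts higher under DRB and under triptolide, 2 and 13, became 2 and 22 with DESeq2, 1 and 6 with either scaling to the sum of counts or to the regions in all 8 lists, 0 and 2 with the treated libraries alone or against a 1.5-fold difference, and 3 and 35 with the index TGACCA libraries alone, an alternative added after seeing the data. Leaving out each library gave 0 to 252 and 2 to 503. The highest values came without the DRB 12 h index TGACCA library, where the other DRB library is assumed to vary like the other groups. The cause was not tested. A change from 0 h that differed between the drugs was found at 2 regions, at 0 with scaling to the regions in all 8 lists, at 5 with index TGACCA alone and at 0 to 10 without each library.

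No paired analysis was possible for the direct comparison because the DRB columns carry no replicate number. For the change from 0 h, a replicate block by column name, added after seeing the data, gave 34 regions, 30 of them negative and the 2 above among them. The within-group differences of same-named libraries at 0 h and after treatment correlated at 0.597 (triptolide) and 0.583 (DRB) over 3166 regions, in 2 pairs a drug, which is a hint from the data and not the design.

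Regions in all treated lists, 6711, became 3565 with peaks at or above the median width of 1314 bp. Regions of both DRB lists alone, 592, became 128 with wider peaks and 234 with lists of equal length, and 618 to 2145 without each list. Those of both triptolide lists alone, 18, became 79, 261, and 19 to 315. With 2 libraries a group, the median 95% interval reached 0.563 (log2, 1.48-fold) either side of the estimate at regions below the median level and 0.35 (1.27-fold) at the others, before any adjustment over regions.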
